A study of Drosophila melanogaster with 107 samples.

Results

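The ionotropic glutamate receptor genes GluRIA, GluRIB, Nmdar1 and Nmdar2 were followed through mushroom body development in Drosophila melanogaster and after 3 genetic perturbations. They are 4 of the 17050 genes listed in the deposited tables, taken by gene symbol, and all 4 passed the filter on low values. They were chosen by their measured levels: GluRIA and GluRIB rise in γ neurons during pruning while other receptor genes fall. Levels of unperturbed γ neurons between the third instar larva and 18 h after puparium formation are therefore given without a test. Their FlyBase identifiers are FBgn0004619 (GluRIA), FBgn0264000 (GluRIB), FBgn0010399 (Nmdar1) and FBgn0053513 (Nmdar2).

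Glutamate-gated cation channels carry fast excitatory signals between neurons. GluRIA and GluRIB encode subunits related to the AMPA-type receptors of vertebrates. Nmdar1 encodes the obligatory subunit of NMDA-type receptors and Nmdar2 its partner subunit; these receptors pass calcium when glutamate binds while the membrane is depolarized, and in flies they are known for their part in olfactory memory. γ neurons of the mushroom body, the olfactory learning centre, prune their larval axons and dendrites in the early pupa under the steroid ecdysone and its receptor EcR, and regrow adult branches later. E75 (the gene Eip75B) is a nuclear receptor and Sox14 a transcription factor, both induced by ecdysone.

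The perturbation libraries came from γ neurons of strains labelled EcR-DN, a dominant-negative form of EcR, E75 RNAi and Sox14 RNAi, each set against control γ neurons in the third instar larva and 0, 6 and 12 h after puparium formation. The control γ neurons carried y,w/+; UAS-RedStinger/+; 71G10/+, the strain of the developmental γ series as well, so a red nuclear reporter under the 71G10 driver marked the cells. For the perturbed flies the labels used here give these strain names and no further genotype. The developmental table followed γ neurons over 14 stages, from the second instar larva to the adult. It also held adult astrocyte-like cells (UAS-RedStinger/cyo on one chromosome, and on another alrm-Gal4 together with UAS-CD8:GFP and UAS-Dcr2, over TM6, tb), αβ neurons (y,w/w; UAS-RedStinger/+; NP3061-GAL4/+) and neurons outside the mushroom body (non-MB; y,w/C155-GAL4, with UAS-RedStinger over MB247-GAL80, which blocks GAL4 in the mushroom body). Sexes were taken at random, flies were kept at 25 °C, and adults were 3 to 5 days old. Each library came from 1000 sorted red cells of dissociated brains, prepared with MARS-seq, which counts polyadenylated transcripts near their 3′ ends.

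The 64 developmental libraries fell into 17 groups and the 43 perturbation libraries into 16, with 2 to 4 libraries a group. Totals ran from 1343651 to 2068007 normalized reads in the developmental table and from 1896123 to 2501051 in the perturbation table. Depth before normalization is unknown, so no counting error is given. Whether libraries of a group came from separate animals is not stated, and p-values therefore cover the library-to-library spread alone. Of 8 glial markers the summed level stayed at 5 to 179 reads in developmental γ libraries and at 0 to 148 in the perturbation table, against 32311 to 44240 in astrocyte-like libraries. The 5 muscle markers summed to 4 to 1022 reads in γ libraries at 15 h and to at most 52 at any other developmental γ stage. The part of this in the 15 h levels was not tested. The 4 hemocyte markers Hml, NimC1, srp and He summed to 0 to 1 in developmental γ libraries. In the perturbation table they summed to 0 to 9, highest in the libraries labelled E75 RNAi at 6 h. Hml, NimC1 and He were at 0 in every γ library. Sox14 had 939 to 1118 reads in Sox14 RNAi libraries at 0 h, against 7100 to 7888 in control, and was lower there and at the third instar; at 6 and 12 h, when control had 471 to 503 and 247 to 382, it was not called. The EcR transcript was lower in EcR-DN at the third instar, with 1186 to 1249 reads against 4007 to 5478, and higher at 6 h, with 2148 to 2674 against 308 to 347. Reads from the EcR-DN transgene may be counted with EcR, which was not tested. Eip75B was called lower at no stage in the libraries labelled E75 RNAi. They had 14881 to 22294 reads at the third instar, against 25956 to 33983 in control, below it without overlap and not called (-0.68, adjusted p = 0.152). At 0 h they had 25881 to 31623, against 25661 to 36319, and at 6 h 14794 to 19423, against 6318 to 8483, where they were called higher (1.25, adjusted p = 0.000381). Every direction drawn from the libraries labelled E75 RNAi rests on that label alone. The Sox14 RNAi library A labelled 0 h correlated more with the third instar libraries B and C of that strain (r = 0.894 and 0.889) than with its own stage (0.856 and 0.875), and the third instar library A correlated as much or more with 0 h libraries B and C (0.881 and 0.893) as with its own stage (0.873 and 0.881). Between libraries B and C r was 0.904 at the third instar and 0.904 at 0 h, against 0.88 to 0.903 across the 2 stages. The 2 A libraries had r of 0.851 with each other. Library C at 0 h had 0.893, 0.895 and 0.903 with the third instar, against 0.875 and 0.904 with its own stage. The A libraries were thus not the only ones this close to the other stage. The 2 stages of this strain were barely separated, and leaving out A does not show that B and C match their labels. Results that rest on the 2 A libraries are followed by the value without them.

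GluRIA and GluRIB fell to their lowest levels at 0 h and were high again at 6 h. GluRIA had 47, 95 and 85 normalized reads in the second instar libraries and 131, 95 and 62 in the third instar libraries. It had 10, 6, 20 and 4 at 0 h, 15, 33 and 14 at 3 h, and 189, 160, 158 and 149 at 6 h. The 0 h and 3 h libraries overlapped, all lay below every larval library, and all 6 h libraries lay above those of the third instar. The mean at 6 h, 164 ± 17.3 (SD, n = 4), was 16.4 times the mean at 0 h, 10 ± 7.12 (n = 4). The log2 fold change, computed throughout on reads + 1, was 4.12 ± 0.49 (standard error) for 6 h against 0 h and -3.29 ± 0.53 for 0 h against the third instar.

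GluRIB took the same course. It had 274, 400 and 459 reads in the third instar larva, 38, 40, 27 and 30 at 0 h, 54, 130 and 80 at 3 h, and 354, 515, 428 and 442 at 6 h. Unlike GluRIA, its 3 h libraries all lay above its 0 h libraries, and its 6 h libraries overlapped those of the third instar. The mean at 6 h, 434.8 ± 66.0 (n = 4), was 12.9 times that at 0 h, 33.8 ± 6.24 (n = 4), with a log2 fold change of 3.65 ± 0.33. Against the third instar, the 6 h level differed by 0.22 ± 0.36 for GluRIB and 0.83 ± 0.53 for GluRIA. The rise at 6 h thus brought GluRIB back to its larval range.

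Both AMPA-type genes peaked in the pupa at 9 h, were lower from 12 to 30 h, and were highest in the adult. GluRIA averaged 248.2 ± 33.5 at 9 h, then 153.5 to 188.8 at every stage from 12 to 30 h, and 306.8 ± 24.3 in adult γ neurons (n = 4 each, 3 at 21 h). GluRIB averaged 663.8 ± 105.9 at 9 h, 402.7 to 543.8 from 12 to 30 h, and 792 ± 115.4 in the adult (n as before). Among the 13 pairs of stages next to each other in order of mean, the libraries overlapped in 10 pairs for GluRIA and 11 for GluRIB. The pairs that did not overlap were the adult above 9 h, 9 h above 12 h and the second instar above 3 h for GluRIA, and the second instar above 3 h and 3 h above 0 h for GluRIB.

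The NMDA-type genes did not share the trough. Nmdar1 had 175, 106 and 230 reads in the third instar larva, 255, 267, 184 and 234 at 0 h, and 215, 150, 165 and 173 at 6 h. Nmdar2 had 228, 201 and 177 in the third instar larva, 199, 232, 303 and 203 at 0 h, and 258, 275, 268 and 357 at 6 h. For both genes the third instar overlapped 0 h, and 0 h overlapped 6 h; 0 h was the highest stage mean of Nmdar1. At 3 h Nmdar2 had 175, 189 and 208, below every 6 h library. Log2 fold changes of 0 h against the third instar were 0.52 ± 0.45 for Nmdar1 and 0.20 ± 0.27 for Nmdar2. Across all 14 stages the Nmdar1 mean ran from 94.5 ± 5.26 in the adult to 235 ± 36.6 at 0 h, and the Nmdar2 mean from 177 ± 40.7 at the second instar to 366.2 ± 87.3 at 9 h. In order of mean, all 13 pairs of neighbouring stages overlapped for each of the 2 genes.

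**Figure D1:**
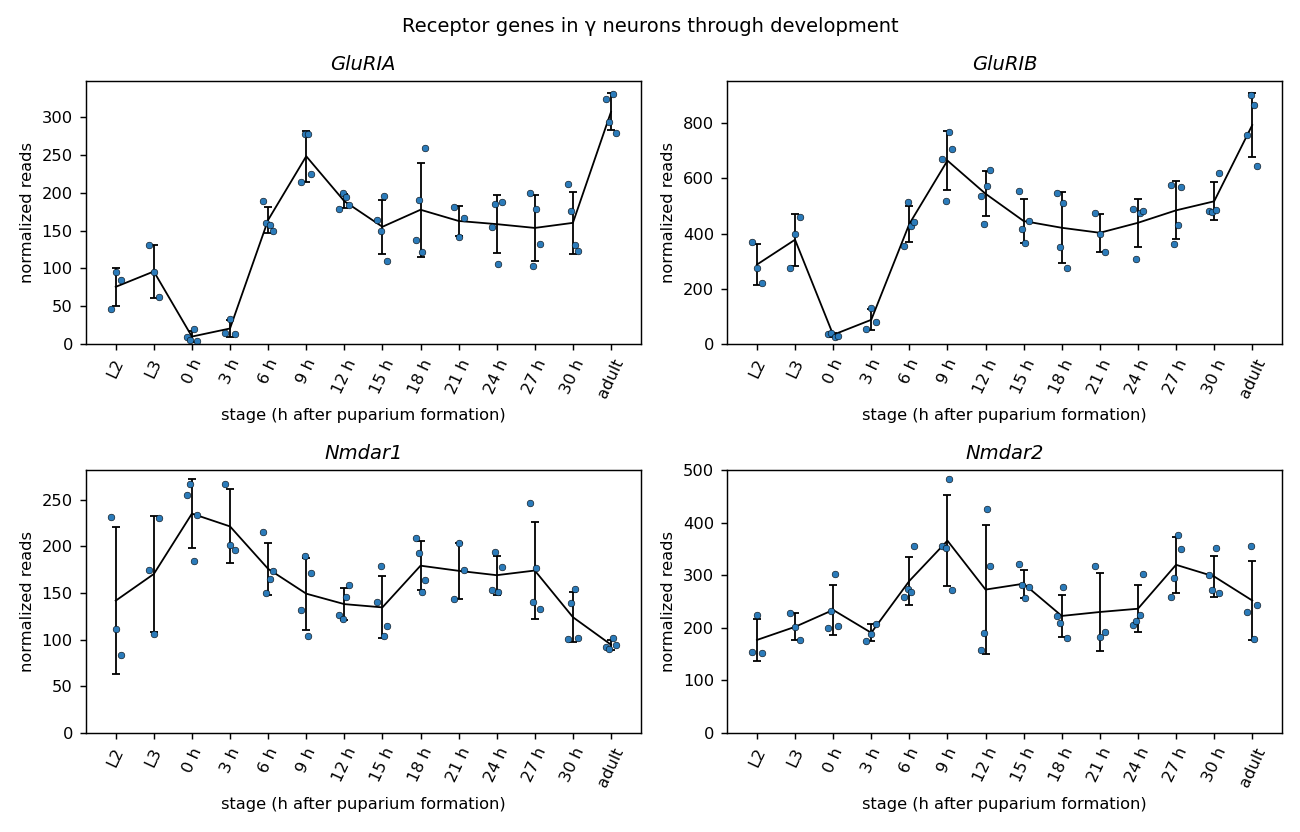
Normalized reads of each receptor gene (vertical axis) in γ neurons at 14 stages (horizontal axis, hours after puparium formation between the larval and adult stages). Points are libraries, and the black line joins stage means with SD bars; GluRIA and GluRIB dip at 0 h, to means of 10 and 33.8, and Nmdar1 is highest there, with 235.

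The levels of general markers moved over the same stages. Summed over the 5 neuronal markers elav, nSyb, brp, fne and Syt1, γ libraries had 9116 to 11224 reads in the third instar larva, 5280 to 5912 at 0 h and 12920 to 13657 at 6 h. Summed over 8 Kenyon cell markers they had 13797 to 15867, 6522 to 9107 and 5747 to 6368 at the same stages. Summed over 5 trachea and cuticle markers they had 1 to 14, then 0 to 15, then 665 to 1163. The part of these shifts in the course of GluRIA and GluRIB was not tested. In bulk libraries fewer cells expressing a gene and less RNA per cell cannot be told apart.

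The control libraries of the perturbation table, scaled separately, showed the same trough. GluRIA had 137 and 69 reads in larvae of the third instar, 29, 13 and 19 at 0 h, 267 and 315 at 6 h, and 213, 311 and 236 at 12 h. GluRIB had 349 and 175, then 14, 49 and 149, then 501 and 708, then 608, 422 and 564. The 0 h libraries lay below those of every other control stage for both genes, although the highest GluRIB library at 0 h came close to the lowest at the third instar. Nmdar1 had its highest control values at 0 h, with 440, 513 and 490, and Nmdar2 had 332, 339 and 365 there. For 6 h against 0 h the log2 fold changes were 3.84 ± 0.41 (GluRIA), 3.63 ± 0.54 (GluRIB), -1.66 ± 0.62 (Nmdar1) and 0.33 ± 0.36 (Nmdar2).

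GluRIA and GluRIB followed each other more closely than either followed any other gene ranked. Over the 14 γ stage means on the log2 scale their Pearson correlation was 0.988, the highest of 4631 genes ranked for either. The next 4 were the same genes for both, CG18265, PVRAP, Ank2 and FoxK, with 0.941 to 0.975 for GluRIA and 0.932 to 0.961 for GluRIB. Ank2 encodes an ankyrin of the axonal membrane skeleton and FoxK a forkhead transcription factor. Nmdar1 ran the other way, with -0.704 to GluRIA and -0.744 to GluRIB. Nmdar2 had 0.481 and 0.448, and the 2 NMDA-type genes had -0.227 with each other. All these points share libraries and scaling, and GluRIA and GluRIB were chosen for this shape, so the values are a description.

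Stages outside the pruning window were tested with limma, with adjusted p under 0.05 as the call. In adult against second instar γ neurons both AMPA-type genes rose, 2 of the 4 members, where 20.0% of 8320 genes were called. GluRIA had 324, 294, 330 and 279 reads in the adult, against 47, 95 and 85 at the second instar, a log2 fold change of 2.06 ± 0.53 (adjusted p = 0.0023). GluRIB had 757, 900, 866 and 645, against 368, 274 and 221, a log2 fold change of 1.48 ± 0.36 (adjusted p = 0.00143). Every adult library lay above every larval one for both genes. Nmdar1 had 92, 90, 102 and 94 in the adult, against 231, 111 and 83, and was not called (-0.44 ± 0.45, adjusted p = 0.568). Nmdar2 had 231, 356, 178 and 244, against 154, 224 and 153, and was not called (0.49 ± 0.27, adjusted p = 0.223). The neuronal marker sum was 20927 to 24289 reads in these adult libraries, against 8848 to 11343 at the second instar. The cholinergic markers ChAT and VAChT summed to 2074 to 3630, against 939 to 1154. The neuroblast markers mira, wor, dpn and ase summed to 0 to 2, against 42 to 94. The part of these shifts in the result was not tested.

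At 30 h against the second instar 1 member was called, Nmdar2, where 13.4% of genes were called. It had 300, 272, 353 and 267 reads at 30 h, against 154, 224 and 153, without overlap (0.76 ± 0.27, adjusted p = 0.0481). This call was lost in 6 of the 7 fits that left out 1 library, those without second instar library 1 or 3 or any 30 h library; over the 7 fits it ran from 0.67 to 0.94, with adjusted p from 0.0295 to 0.183. GluRIA (1.10 ± 0.53, adjusted p = 0.184) and GluRIB (0.86 ± 0.36, adjusted p = 0.112) were not called. Both were called with a pseudocount of 8 (adjusted p = 0.0248 for GluRIA and 0.0436 for GluRIB), on only the groups compared (0.015 and 0.00605) and without astrocyte-like libraries (0.00895 and 0.00752). For 30 h against 18 h no member was called by limma, where 1.29% of genes were, and 0 members had an unadjusted p under 0.05. The same held for the adult against 30 h, where 18.6% of genes were called, with log2 fold changes of 0.96 ± 0.49 for GluRIA (adjusted p = 0.182) and 0.61 ± 0.33 for GluRIB (adjusted p = 0.227). Here too the call depended on the setting. On only the groups compared (adjusted p = 0.00109 and 0.00486) and without astrocyte-like libraries (0.0103 and 0.0387) GluRIA and GluRIB were called, and GluRIA was with a pseudocount of 8 (0.0218).

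Among adult neurons GluRIB and Nmdar2 differed between types. Both mushroom body types had more GluRIB than non-MB neurons, and αβ neurons had less Nmdar2 than non-MB neurons. All 4 genes were lowest in astrocyte-like cells. By mean, GluRIA stood in the order αβ, γ, non-MB, astrocyte-like, with no overlap between neighbours. GluRIB had the same order, with αβ and γ overlapping. Nmdar1 was ordered non-MB, αβ, γ, astrocyte-like with the first 2 overlapping, and Nmdar2 non-MB, γ, αβ, astrocyte-like, again with the first 2 overlapping.

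In γ against non-MB neurons 1 of the 4 members was called, where 14.5% of genes were. GluRIB had 757, 900, 866 and 645 reads in γ neurons, against 405, 437, 198 and 327 in non-MB neurons, 2.32 times the non-MB mean (1.26 ± 0.33, adjusted p = 0.00456). GluRIA had 324, 294, 330 and 279, against 161, 105, 187 and 240, without overlap but not called (0.88 ± 0.49, adjusted p = 0.268). Nmdar1 was at 92, 90, 102 and 94, against 176, 234, 159 and 176, also without overlap and not called (-0.96 ± 0.42, adjusted p = 0.125). Nmdar2 was at 231, 356, 178 and 244, against 377, 297, 416 and 380, with 1 γ library inside the non-MB range (-0.58 ± 0.25, adjusted p = 0.124). For GluRIA and Nmdar1 the adjusted p depended on whether astrocyte-like libraries entered the estimate of spread; without them both were called, at 0.0257 for GluRIA and 0.00182 for Nmdar1.

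In αβ against non-MB neurons 2 members were called in opposite directions, where 15.1% of genes were called. GluRIB had 809, 784, 1086 and 774 reads in αβ neurons, above every non-MB library (1.38 ± 0.33, adjusted p = 0.00156). Nmdar2 averaged 141.8 ± 14.5 (SD, n = 4; lowest 126) in αβ neurons, each library below every non-MB library, a log2 fold change of -1.36 ± 0.25 (adjusted p = 2.76e-05). GluRIA had 420, 448, 457 and 368, above every non-MB library, and just missed the threshold (1.34 ± 0.49, adjusted p = 0.0513). Nmdar1 had 165, 121, 218 and 166 and overlapped the non-MB libraries (-0.17 ± 0.42, adjusted p = 0.891). In γ against αβ neurons, where 7.51% of genes were called, Nmdar2 was higher without overlap (0.79 ± 0.25, adjusted p = 0.0369), a call lost in 6 of the 8 fits that left out 1 library (γ libraries 1, 2 and 4, αβ libraries 1, 3 and 4; 0.61 to 0.94 over the 8). GluRIA (-0.46 ± 0.49, adjusted p = 0.738), GluRIB (-0.12 ± 0.33, adjusted p = 0.928; 95% interval -0.79 to 0.55) and Nmdar1 (-0.79 ± 0.42, adjusted p = 0.328) were not called between γ and αβ neurons.

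In astrocyte-like cells against the mean of the 3 neuron types all 4 members were lower, where 60.0% of genes were called. GluRIA had 8, 26, 34 and 0 reads in astrocyte-like libraries (-4.86 ± 0.40, adjusted p = 2.48e-16). GluRIB had 11, 4, 57 and 12 (-5.37 ± 0.27, adjusted p = 4.09e-25). Nmdar1 was at 0 in 3 libraries and at 16 in the other, so its fitted change of -6.14 ± 0.34 (adjusted p = 1.96e-23) depends on the added read and was -3.83 with 8 reads added. Nmdar2 kept the most, with 29, 61, 80 and 33 (-2.30 ± 0.20, adjusted p = 5.51e-15). The 5 neuronal markers summed to 1714 to 1933 reads in astrocyte-like libraries, against 20476 to 24289 in the 3 neuron types.

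**Figure D2:**
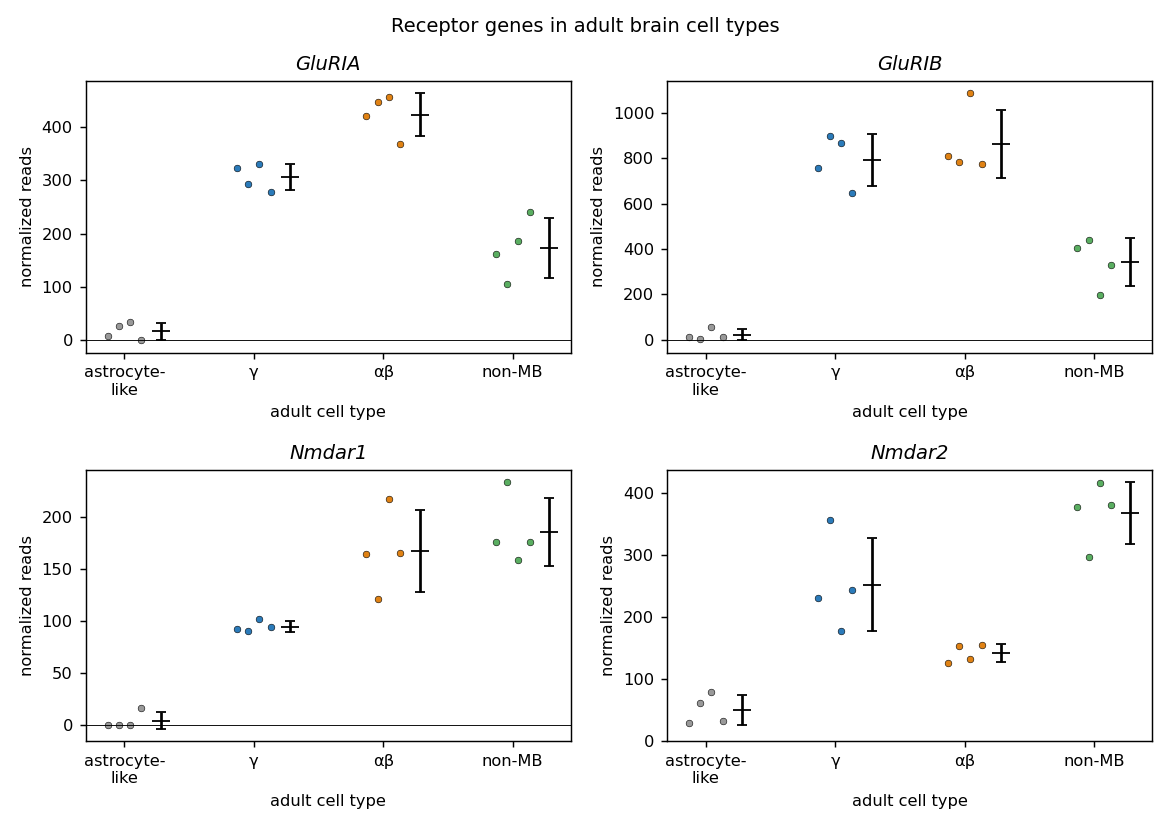
Normalized reads of each receptor gene (vertical axis) in adult astrocyte-like cells, γ, αβ and non-MB neurons (horizontal axis). Points are libraries (4 per type) and bars beside them the mean ± SD; GluRIB averages 792 in γ, 863.2 in αβ and 341.8 in non-MB neurons, while Nmdar2 averages 141.8 in αβ and 367.5 in non-MB neurons.

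The 3 perturbations were each compared with the same control libraries, so their results share that reference. The share of all genes without overlap between groups was not counted, so lack of overlap is stated gene by gene as a description. The low control level at 0 h lies in the window that chose the members, and the comparisons at 0 h and over the pupal mean (the average of 0, 6 and 12 h) contain it. Calls of GluRIA and GluRIB in those comparisons are therefore not independent of the choice. The control levels at the third instar, 6 h and 12 h lie in that window too, and the high control level at 6 h is part of the rise itself. Calls of GluRIA and GluRIB at 6 h are thus not independent of the choice either.

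In EcR-DN neurons GluRIA and GluRIB did not show the control trough at 0 h. GluRIA had 91 to 160 reads (mean 135.3, n = 3) at 0 h in EcR-DN, against 29, 13 and 19 in control, 6.66 times the control mean (log2 fold change 2.70 ± 0.36). GluRIB had 457, 700 and 629, against 14, 49 and 149, 8.42 times the control mean (3.60 ± 0.48). Every EcR-DN library lay above every control library for both genes. The control trough chose these genes, so both are given as a description with no p-value. In this comparison 16.8% of genes were called. Nmdar1 had 193, 198 and 216, against 440, 513 and 490, without overlap but not called (-1.24 ± 0.55, adjusted p = 0.126). Nmdar2 had 251, 326 and 271, against 332, 339 and 365, also without overlap and not called (-0.30 ± 0.32, adjusted p = 0.622). At this stage the neuronal marker sum was 19590 to 24788 reads in EcR-DN, against 5636 to 6962 in control, and the Kenyon cell sum 16906 to 19769, against 10775 to 11893. The cholinergic markers ChAT and VAChT summed to 2441 to 2981, against 660 to 710, and the 4 neuroblast markers mira, wor, dpn and ase to 41 to 143, against 1 to 2. The part of these shifts in the higher GluRIA and GluRIB was not tested.

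At the other stages no member was called in EcR-DN by limma. At the third instar GluRIA had 144, 186 and 168 reads in EcR-DN, against 137 and 69 (0.76 ± 0.41, adjusted p = 0.318), where 8.24% of genes were called and 0 members had an unadjusted p under 0.05. At 6 h GluRIA had 128, 189 and 180, below both control libraries at 267 and 315, and was not called (-0.82 ± 0.41, adjusted p = 0.286); it was the 1 member with an unadjusted p under 0.05, and 6.85% of genes were called. GluRIB at 6 h had 432, 490 and 387, against 501 and 708 (-0.45 ± 0.54, adjusted p = 0.786). At 12 h EcR-DN and control were closest, with 306 and 334 against 213, 311 and 236 for GluRIA (0.35 ± 0.41, adjusted p = 0.859). There 4.82% of genes were called and 0 members had an unadjusted p under 0.05.

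Within EcR-DN the AMPA-type genes did not change detectably between 0 and 6 h. The log2 fold change of 6 h against 0 h was 0.31 ± 0.36 for GluRIA (95% interval -0.42 to 1.05, adjusted p = 0.873) and -0.43 ± 0.48 for GluRIB (-1.41 to 0.55, adjusted p = 0.866). By limma 0 of 4 members were called, 0 had an unadjusted p under 0.05, and 1.21% of genes were called. The 0 to 6 h change in EcR-DN minus that in control was -3.53 ± 0.54 for GluRIA and -4.06 ± 0.73 for GluRIB. The control rise chose these genes, so both are given as a description with no p-value, and nothing is read from the 4.82% of genes called for this difference. Over the pupal mean, which holds the trough, both were higher in EcR-DN, by 0.74 ± 0.23 for GluRIA and 1.14 ± 0.30 for GluRIB. These values are again a description, and 16.5% of genes were called. Without control library A at 6 h the GluRIA value was 0.70. Nmdar1 (-0.12 ± 0.34, adjusted p = 0.883) and Nmdar2 (-0.18 ± 0.20, adjusted p = 0.641) were not called over the pupal mean.

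The libraries labelled E75 RNAi had the highest AMPA-type levels of the perturbation table at every stage. At 0 h GluRIA had 777 and 722 reads in the libraries labelled E75 RNAi, against 29, 13 and 19 in control, 36.9 times the control mean (5.21 ± 0.41). GluRIB had 975 and 1841, against 14, 49 and 149, 19.9 times the control mean (4.80 ± 0.54). The groups stood far apart. The control trough at 0 h chose these genes, so both values are a description with no p-value, and 6.75% of genes were called. Here the neuronal marker sum was 6205 to 6293, against 5636 to 6962 in control, and the Kenyon cell sum 12019 to 16154, against 10775 to 11893. The neuroblast marker sum was 61 to 69, against 1 to 2, with 3 of the 4 markers at 0, and at 6 h 48 to 196, against 2 to 18; its part was not tested.

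Both AMPA-type genes were also higher in the larva. At the third instar GluRIA had 356, 334 and 360 reads in the libraries labelled E75 RNAi, against 137 and 69 (1.84 ± 0.41, adjusted p = 0.00419). GluRIB had 1525, 1403 and 788, against 349 and 175 (2.26 ± 0.54, adjusted p = 0.00967). Neither gene overlapped between the groups, and 3.20% of genes were called. The neuroblast marker sum was 88 to 130 there, against 8 to 41, and its part was not tested. Both calls were lost without control library C, at 1.35 (adjusted p = 0.27) for GluRIA and 1.77 (adjusted p = 0.302) for GluRIB.

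At 6 h GluRIA had 1030, 922 and 766 reads in the libraries labelled E75 RNAi, against 267 and 315 (1.63 ± 0.41, adjusted p = 0.0057; 1.51 and 0.0827 without control library A). GluRIB had 2313, 2058 and 1513, against 501 and 708 (1.70 ± 0.54, adjusted p = 0.0415). That second call was lost without either control library (1.45, adjusted p = 0.271 without A; 1.94, adjusted p = 0.11 without C) and without library A or B labelled E75 RNAi (1.57, adjusted p = 0.111; 1.65, adjusted p = 0.0919). At 6 h 2 members were called against 8.39% of genes. At 12 h 1 member was called, against 4.42% of genes: GluRIA had 820 and 848, against 213, 311 and 236 (1.73 ± 0.41, adjusted p = 0.00504). Without 1 of the 2 libraries labelled E75 RNAi it gave 1.76 (adjusted p = 0.0567) without A and 1.71 (adjusted p = 0.0636) without C. GluRIB at 12 h had 1829 and 1161, against 608, 422 and 564, without overlap but not called (1.47 ± 0.54, adjusted p = 0.137).

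The NMDA-type genes were not called at any single stage in the libraries labelled E75 RNAi. Nmdar1 had 532, 740 and 604 reads, against 293 and 325, at the third instar (1.003 ± 0.62, adjusted p = 0.574). It had 1049 and 1442, against 440, 513 and 490, at 0 h (1.36 ± 0.62, adjusted p = 0.209) and 550, 348 and 590, against 165 and 138, at 6 h (1.67 ± 0.62, adjusted p = 0.0908). At 12 h it averaged 150 (n = 2), against 166, 209 and 163. The groups did not overlap up to 6 h, and at 12 h the libraries labelled E75 RNAi were the lower ones. Nmdar2 had 874, 703 and 700, against 500 and 376, at 6 h (0.80 ± 0.36, adjusted p = 0.195).

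Over the pupal mean the libraries labelled E75 RNAi were higher by 2.86 ± 0.23 for GluRIA and 2.65 ± 0.31 for GluRIB. Both are a description, since this mean holds the trough, and 12.6% of genes were called. Nmdar1 differed by 0.93 ± 0.36 (95% interval 0.21 to 1.65, adjusted p = 0.0861) and Nmdar2 by 0.53 ± 0.21 (0.11 to 0.95, adjusted p = 0.0977). Within these libraries no member was called by limma for 6 h against 0 h, where 11.6% of genes were; Nmdar1 (-1.35 ± 0.62, adjusted p = 0.17) and Nmdar2 (0.89 ± 0.36, adjusted p = 0.108) were the 2 members with an unadjusted p under 0.05. The 0 to 6 h change minus that in control was -3.58 ± 0.57 for GluRIA and -3.10 ± 0.77 for GluRIB, again as a description since the control rise chose these genes; 4.07% of genes were called for this difference. The GluRIB value was -2.26 without control library A at 0 h and -3.92 at its lowest over the libraries left out.

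**Figure D3:**
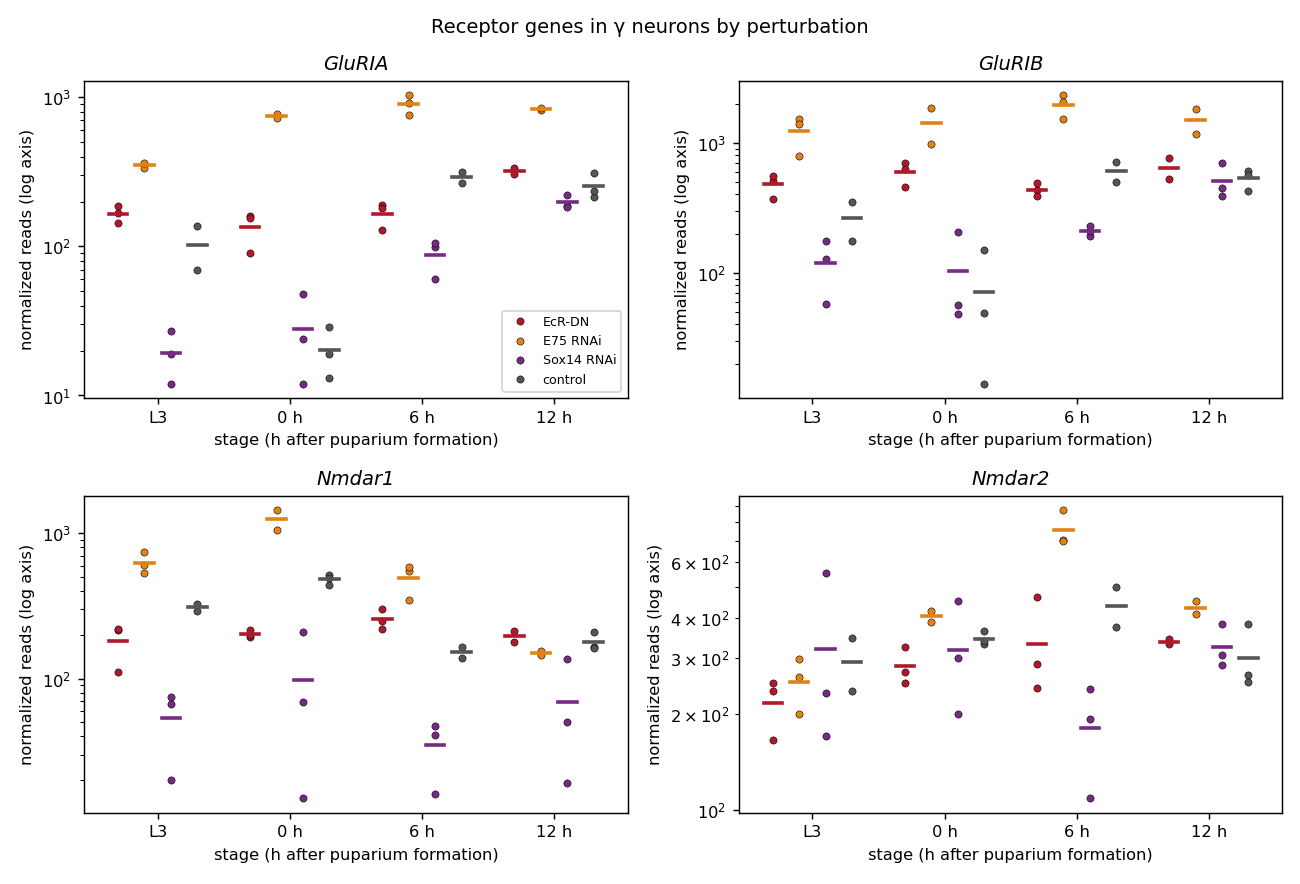
Normalized reads on a log axis (vertical) for each receptor gene in γ neurons labelled EcR-DN, E75 RNAi, Sox14 RNAi and control at 4 stages (horizontal axis). Points are libraries and short lines group means; at 0 h GluRIA averages 135.3 in EcR-DN and 749.5 in the libraries labelled E75 RNAi, against 20.3 in control, and Nmdar1 averages 98.0 in Sox14 RNAi, against 481 in control.

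In Sox14 RNAi neurons Nmdar1 was lower at the third instar, 0 h and 6 h. At 0 h it had 210, 69 and 15 reads in Sox14 RNAi, against 440, 513 and 490 in control, a log2 fold change of -2.96 ± 0.55 (adjusted p = 0.000195), and was the 1 member called, where 8.55% of genes were. At the third instar it had 67, 20 and 75, against 293 and 325 (-2.70 ± 0.62, adjusted p = 0.0108). At 6 h it had 47, 41 and 16, against 165 and 138 (-2.23 ± 0.62, adjusted p = 0.0197). At 12 h it had 19, 137 and 50, against 166, 209 and 163 (-1.78 ± 0.55, adjusted p = 0.105). Every Sox14 RNAi library lay below every control library at all 4 stages. Over the pupal mean Nmdar1 fell by 2.32 ± 0.33 on the log2 scale (adjusted p = 1.52e-06), 1 of 4 members against 11.6% of genes. Without the 2 A libraries of the third instar and 0 h Nmdar1 was at -2.95 (adjusted p = 0.00182) at the third instar. It was then at -3.85 (adjusted p = 1.31e-06) at 0 h and -2.62 (adjusted p = 8.92e-09) over the pupal mean. The third instar call was lost without control library B (-2.77, adjusted p = 0.0991), control library C (-2.62, adjusted p = 0.135) or Sox14 RNAi library B (-2.11, adjusted p = 0.0944). The 6 h call was lost without control library A (-2.10, adjusted p = 0.156), control library C (-2.35, adjusted p = 0.101) or Sox14 RNAi library C (-1.76, adjusted p = 0.146).

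GluRIA was also lower in Sox14 RNAi at the third instar and at 6 h. At the third instar it had 12, 19 and 27 reads, against 137 and 69 (-2.34 ± 0.41, adjusted p = 0.000287), and with Nmdar1 made 2 of 4 members called against 1.74% of genes. At 6 h it had 60, 99 and 105, against 267 and 315 (-1.75 ± 0.41). The control rise to 6 h chose this gene, so the 6 h value is a description with no p-value. Neither stage overlapped. Without the 2 A libraries of the third instar and 0 h the third instar value was -2.05 (adjusted p = 0.00107). The third instar call was lost without control library B (-1.85) or when only these 2 groups were fitted (adjusted p = 0.24). The 6 h value was -1.63 without control library C. At 0 h, in the control trough, GluRIA had 48, 12 and 24, against 29, 13 and 19, and overlapped. Its change of 0.31 ± 0.36 (-0.17 without library A) is a description with no p-value.

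GluRIB had 57, 128 and 174 reads in Sox14 RNAi larvae, against 349 and 175, and 192, 208 and 229 at 6 h, against 501 and 708. At the third instar the groups were barely apart, with 174 against 175 at the closest. GluRIB was not called there (-1.18 ± 0.54, adjusted p = 0.397) and was at -0.72 without library A. At 6 h it lay below control without overlap (-1.51 ± 0.54). The control rise chose this gene, so the 6 h value is a description with no p-value. Nmdar2 was called lower at 6 h and at no other stage, with 240, 194 and 109, against 500 and 376 (-1.33 ± 0.36, adjusted p = 0.0166). At 6 h Nmdar1 and Nmdar2 were thus called, where 5.98% of genes were, beside GluRIA, whose call is not independent of the choice. The Nmdar2 call was lost without control library A (-1.12, adjusted p = 0.206), control library C (-1.53, adjusted p = 0.0502) or Sox14 RNAi library C (-1.003, adjusted p = 0.151). At 12 h limma called no member and 1.61% of genes; Nmdar1 was the 1 member with an unadjusted p under 0.05, and was called without Sox14 RNAi library B (-2.49, adjusted p = 0.016), while GluRIA (-0.34 ± 0.36, adjusted p = 0.863) and GluRIB (-0.08 ± 0.48; 95% interval -1.06 to 0.90) were close to control.

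Over the pupal mean Nmdar2 (-0.47 ± 0.19, adjusted p = 0.122) was not called in Sox14 RNAi. GluRIA differed by -0.59 ± 0.22 and GluRIB by -0.27 ± 0.29. Both are a description with no p-value, since this mean holds the trough. Without the 2 Sox14 RNAi A libraries of the third instar and 0 h, the GluRIA value was -0.75. Within Sox14 RNAi GluRIA rose at 6 h against 0 h by 1.78 ± 0.36 (adjusted p = 0.00057; 0.0822 fitted on those 2 groups alone), the 1 member called where 8.16% of genes were, and GluRIB differed by 1.33 ± 0.48 (adjusted p = 0.0871; 1.99 and 0.00352 without those libraries). Nmdar2 at 6 h against 0 h was -0.81 ± 0.32 (adjusted p = 0.134), and -1.10 (adjusted p = 0.0165) without those libraries. Nmdar1 was -0.93 ± 0.55 (adjusted p = 0.41), and -1.90 (adjusted p = 0.0142) without Sox14 RNAi library C at 0 h. The 0 to 6 h change of GluRIA minus that in control was -2.06 ± 0.54, and -1.58 without the 2 A libraries. The control rise chose this gene, so both values are a description with no p-value. For this difference 2.62% of genes were called.

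Trachea and cuticle markers were high in the control libraries at 6 h. Their summed level was 596 to 1102 reads in EcR-DN, 1492 to 1576 in the libraries labelled E75 RNAi, 25 to 566 in Sox14 RNAi and 2669 to 3451 in control. The part of this gap in the 6 h results was not tested.

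**Figure D4:**
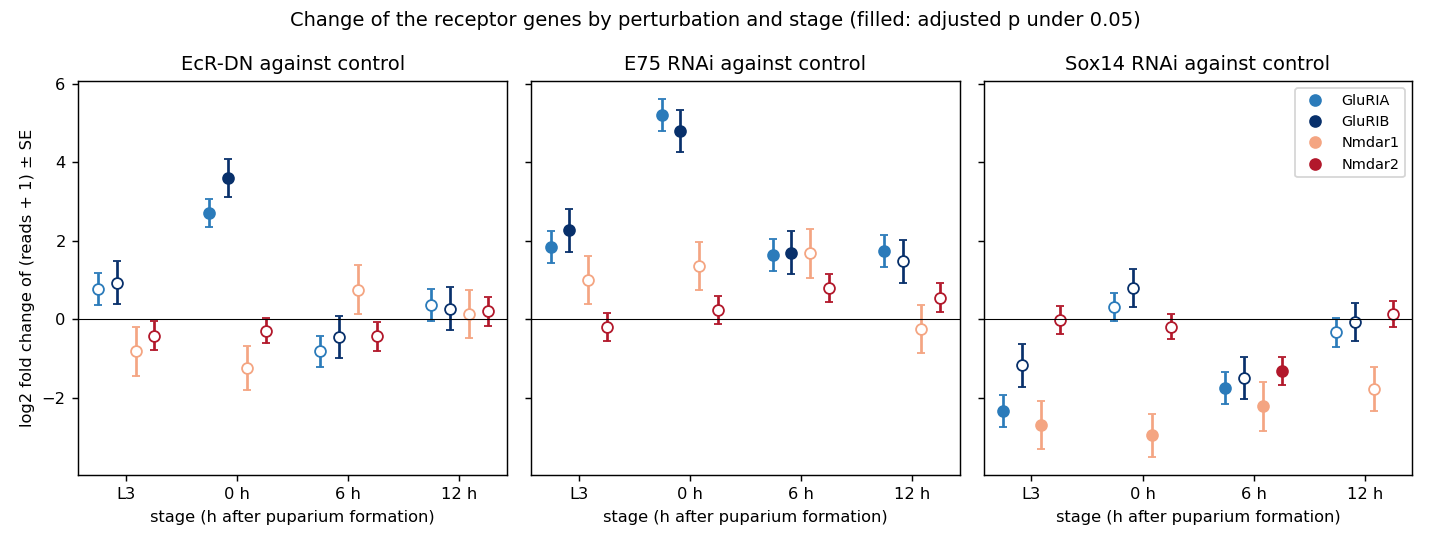
Log2 fold change of each perturbation against control (vertical axis, reads + 1, bars ± standard error) for the 4 receptor genes at 4 stages (horizontal axis); filled points have adjusted p under 0.05. The libraries labelled E75 RNAi have GluRIA at 1.63 or more at every stage, EcR-DN has filled points at 0 h alone, and Sox14 RNAi has Nmdar1 at -1.78 or less at every stage. At 0 h and 6 h the fills of GluRIA and GluRIB are not independent of the choice of these genes.

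The differences between perturbations were tested over the pupal mean, which removes the shared control. EcR-DN stood below the libraries labelled E75 RNAi for all 4 members, where 22.8% of genes were called. The differences were -2.11 ± 0.23 for GluRIA (adjusted p = 2.69e-09), -1.52 ± 0.31 for GluRIB (adjusted p = 0.000266), -1.05 ± 0.36 for Nmdar1 (adjusted p = 0.0275) and -0.71 ± 0.21 for Nmdar2 (adjusted p = 0.0102). The Nmdar1 call was lost without EcR-DN library B at 12 h (-1.01, adjusted p = 0.0667), library B labelled E75 RNAi at 0 h (-0.97, adjusted p = 0.0704) or library A (-1.03, adjusted p = 0.0572) or C (-1.06, adjusted p = 0.0539) labelled E75 RNAi at 12 h. EcR-DN stood above Sox14 RNAi for 3 members, where 14.7% of genes were called. Those differences were 1.34 ± 0.22 for GluRIA (adjusted p = 8.08e-06), 1.41 ± 0.29 for GluRIB (adjusted p = 0.000349) and 2.20 ± 0.33 for Nmdar1 (adjusted p = 1.92e-06). Nmdar2 differed by 0.28 ± 0.19 there (95% interval -0.11 to 0.68, adjusted p = 0.413). The libraries labelled E75 RNAi stood above Sox14 RNAi for all 4 members, where 22.4% of genes were called, by 3.45 ± 0.23 for GluRIA (adjusted p = 1.14e-15), 2.92 ± 0.30 for GluRIB (adjusted p = 3.06e-10), 3.25 ± 0.34 for Nmdar1 (adjusted p = 5.43e-10) and 0.99 ± 0.20 for Nmdar2 (adjusted p = 0.000205). Without the 2 Sox14 RNAi A libraries the 7 called differences from Sox14 RNAi were still called, at 1.497 for GluRIA, 1.62 for GluRIB and 2.497 for Nmdar1 in EcR-DN, and 3.61, 3.14, 3.55 and 0.89 for GluRIA, GluRIB, Nmdar1 and Nmdar2 with the label E75 RNAi.

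Nmdar1 and Nmdar2 overlap other genes in the reference annotation, and the sources do not state whether counting used strand. Itp-r83A, the inositol trisphosphate receptor gene on the strand opposite Nmdar1, had 157 and 297 reads at 0 h in the libraries labelled E75 RNAi, against 5, 0 and 33 in control. It was higher over the pupal mean in EcR-DN (2.95, adjusted p = 0.002) and in the libraries labelled E75 RNAi (4.07, adjusted p = 6.47e-05), and was not called in Sox14 RNAi (1.498, adjusted p = 0.17). Reads of Nmdar1 and Itp-r83A cannot be told apart without strand. CR43845 also overlaps Nmdar1, on the same strand, so strand would not separate it. It had 0 and 25 reads at 0 h in the libraries labelled E75 RNAi and 0 in control there. The part of both overlaps in the Nmdar1 values was not tested. The gene inc lies opposite Nmdar2. Over the pupal mean it was lower in EcR-DN (-0.78, adjusted p = 0.00182) and in Sox14 RNAi (-0.76, adjusted p = 0.0027). It was not called in the libraries labelled E75 RNAi (0.18, adjusted p = 0.63). At 6 h, where Nmdar2 was called in Sox14 RNAi, inc was lower there too (-1.11, adjusted p = 0.0359). The part of this in the Nmdar2 values was not tested. GluRIA and GluRIB overlap no annotated gene.

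Few other glutamate receptor genes could be tested. Of 10 kainate-type and muscle-type subunit genes, 4 passed the filter in the developmental table and 5 in the perturbation table. The 5 muscle-type genes GluRIIA to GluRIIE had at most 19 and 16 reads in the 2 tables, and clumsy was at 0 in every library. In EcR-DN 2 of the 5 tested rose on the pupal mean, CG5621 (2.24, adjusted p = 0.0263) and CG11155 (0.59, adjusted p = 0.00519), with a list median of 0.20 beside 0.07 over all genes. In the libraries labelled E75 RNAi 1 fell, CG3822 (-1.11, adjusted p = 0.000315), and in Sox14 RNAi limma called 0 of 5, none of which had an unadjusted p under 0.05. Of all genes, 16.5% were called in EcR-DN, 12.6% in the libraries labelled E75 RNAi and 11.6% in Sox14 RNAi. Ekar (0.14 in EcR-DN, -1.28 in the libraries labelled E75 RNAi, -0.38 in Sox14 RNAi) and GluRIID (0.20, 0.92 and -0.22 in the same order) were called in no perturbation. The members' own medians were 0.31 in EcR-DN, 1.79 in the libraries labelled E75 RNAi and -0.53 in Sox14 RNAi. They hold GluRIA and GluRIB, chosen for the trough within the pupal mean, so they are a description. In EcR-DN the members split, with GluRIA at 0.74 and GluRIB at 1.14, and Nmdar1 at -0.12 and Nmdar2 at -0.18.

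GluClalpha, the glutamate-gated chloride channel, was high at 0 h, when the AMPA-type genes were low, and low at 12 h. Its mean was 727.3 reads in the third instar larva, 1164 at 0 h, 239.8 at 6 h, 59.0 at 12 h and 708.8 in the adult. Across the pupal stages GluClalpha was higher in EcR-DN (1.43) and in the libraries labelled E75 RNAi (2.26, adjusted p = 4.25e-08), and lower in Sox14 RNAi (-1.20, adjusted p = 0.00115). The G-protein-coupled receptor mGluR averaged 467.8 reads in adult γ neurons, against 16.7 at the second instar (4.91, adjusted p = 0.000124).

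Of 12 auxiliary and scaffold protein genes 6 rose and 1 fell on the pupal mean in EcR-DN, where 16.5% of all genes were called, including Neto, a kainate receptor auxiliary subunit (4.13), and stg1, a relative of the vertebrate AMPA receptor auxiliary subunit stargazin (2.02). In the libraries labelled E75 RNAi 2 rose, stg1 (3.998, adjusted p = 4.15e-14) and metro, and in Sox14 RNAi 1 rose and 1 fell, Nlg4 (-2.06), beside 12.6% and 11.6% of all genes called in those comparisons. In adult γ against non-MB neurons stg1 was higher (3.35) and Neto lower (-3.80). Of the 9 genes of glutamate synthesis, release and clearance, 3 rose in EcR-DN, including Gdh (3.06), while 2 fell in the libraries labelled E75 RNAi (Gdh at -1.94 and Gs1 at -1.39) and 1 in Sox14 RNAi (Gs1 at -1.60). VGlut, the vesicular glutamate transporter of neurons that release glutamate, was lower in γ than in non-MB neurons (-5.23).

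The receptor genes of other transmitters were counted in the same way, beside 16.5% of all genes called in EcR-DN, 12.6% in the libraries labelled E75 RNAi and 11.6% in Sox14 RNAi. In EcR-DN 7 of 9 tested nicotinic acetylcholine receptor genes rose over the pupal mean, with a list median of 1.74 and nAChRbeta1 at 3.39, and 4 of 5 tested GABA receptor genes, with Rdl at 2.80, beside the higher neuronal marker sum given above. In the libraries labelled E75 RNAi 4 nicotinic genes rose (nAChRbeta1 at 3.00) and 4 GABA receptor genes (GABA-B-R1 at 2.03, Rdl at 1.79). In Sox14 RNAi 2 nicotinic genes rose, nAChRalpha3 (3.64) and nAChRalpha7 (2.60), and 2 fell, nAChRalpha1 (-0.78) and nAChRalpha2 (-0.96). The adult against second instar comparison called 5 of 9 nicotinic genes higher, led by nAChRalpha7 (4.34), and 1 of 7 GABA receptor genes, GABA-B-R1 (1.67), beside 20.0% of all genes. Of 10 chemosensory ionotropic receptor genes 1 passed the filter, Ir93a, which was higher in the adult (3.97).

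**Figure D5:**
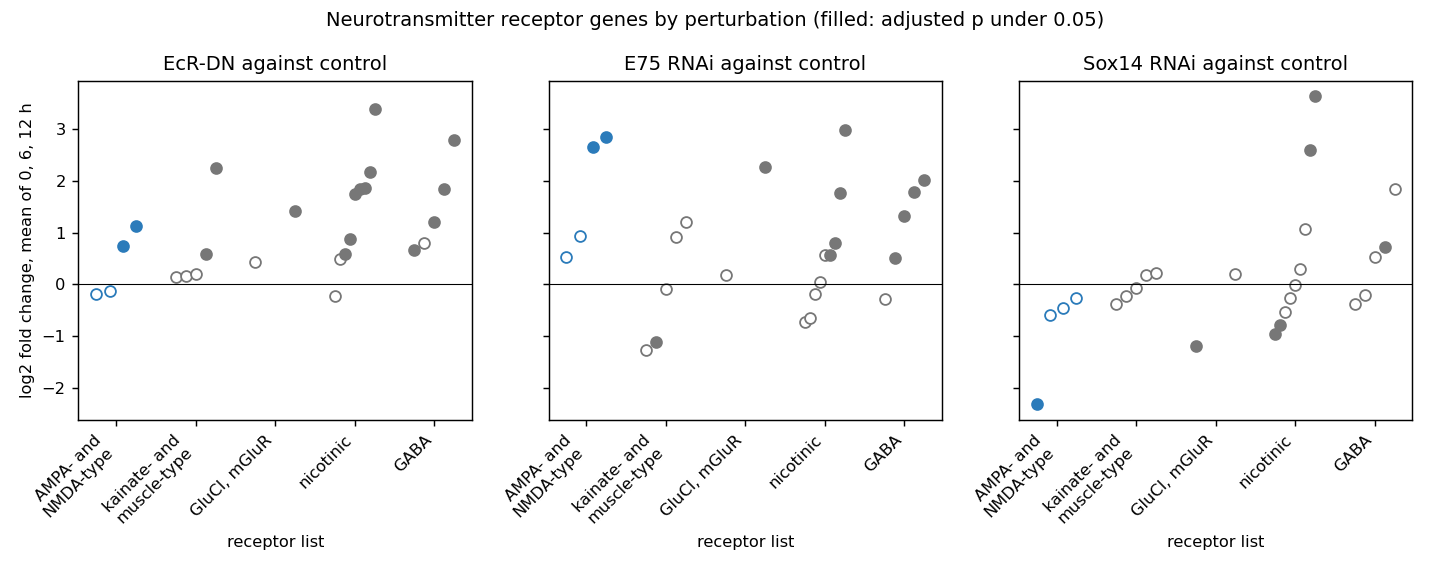
Log2 fold change over the mean of 0, 6 and 12 h (vertical axis) for each tested gene of 5 receptor lists (horizontal axis) in EcR-DN, the libraries labelled E75 RNAi and Sox14 RNAi, each against control; filled points have adjusted p under 0.05. The 4 members (blue) have medians of 0.31, 1.79 and -0.53, and among kainate- and muscle-type genes CG5621 and CG11155 are filled in EcR-DN and CG3822 in the libraries labelled E75 RNAi. Fills of GluRIA and GluRIB, and the medians that hold them, are not independent of the choice of these genes.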

How the data were processed

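The deposited values are, per the file headers, normalized data, a score per gene and library that the authors normalized and that comes in whole numbers. The scaling method is not named, no count model was fitted, and the 2 tables were scaled separately. Per the submitters' processing notes, bcl2fastq, HISAT 0.1.5 and HOMER were used, with no role stated; the genome build, and whether values count molecules or reads, are not stated. MARS-seq libraries are not length-normalized, so levels were not compared between genes.

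Log2(value + 1) was fitted with limma 3.58.1 (R 4.3.3) as group means over all groups of a table, with a mean-variance trend. A gene was tested where 3 or more developmental or 2 or more perturbation libraries reached 10 reads (8320 and 8656 genes), two-sided, with Benjamini-Hochberg adjustment over all of them and a threshold of 0.05. The scripts were tested on simulated data. The members and gene lists were chosen with earlier results of these data known. From each list the text names up to 4 called genes with the largest change per comparison, every ionotropic subunit gene, and the 5 genes most correlated with GluRIA and with GluRIB among those with a stage mean of at least 50. Reference annotations (BDGP6, RefSeq) served for names and overlaps alone. Alternatives were a pseudocount of 8, no filter, median-ratio rescaling, a robust fit without trend, the replicate number as a block, only the groups compared, no astrocyte-like libraries, each library left out in turn and, added after seeing the data, no Sox14 RNAi A libraries of the third instar and 0 h.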

Additional observations from a re-analysis of the deposited data

Results flagged for a closer look

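In EcR-DN the 0 to 6 h change differed from that of control by -3.53 for GluRIA and -4.06 for GluRIB on the log2 scale. In the libraries labelled E75 RNAi the same differences were -3.58 for GluRIA and -3.10 for GluRIB, and in Sox14 RNAi the difference for GluRIA was -2.06. The control rise in each chose the members, so these differences are a description. Calls for them, below too, are not independent of that choice. The same holds for calls of GluRIA and GluRIB against control at 0 h, at 6 h and over the pupal mean.

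In single groups of 4 libraries, 1 library stood apart from the other 3 in 5 of the 52 gene and group combinations examined, where chance flags about 1 in 20. GluRIB had 309 reads in library 2 at 24 h, below the other 24 h libraries, 620 in library 4 at 30 h, 1086 in αβ library 3 and 57 in astrocyte-like library 3, each above the others of its group. Nmdar1 had 16 in astrocyte-like library 4, where the others had 0.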

How the results depend on the processing

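Of 1936 alternative values of the members' tests, 1804 kept their direction and their side of the threshold, 61 lost a call, 50 gained one and 21 changed sign. The calls for Nmdar1 in Sox14 RNAi at 0 h and over the pupal mean, and for GluRIB in both mushroom body types against non-MB neurons held in every alternative run. The causes of the changes were not tested.

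Fits on only the groups compared gained 18 calls and lost 5. Gained were GluRIA in αβ (1.34) and γ (0.88) and Nmdar1 (-0.96) and Nmdar2 (-0.58) in γ against non-MB neurons, Nmdar1 in EcR-DN at 0 h (-1.24) and in its 0 to 6 h change against control (1.99) and with the label E75 RNAi at 0 h (1.36) and over the pupal mean (0.93), and Nmdar2 there over the pupal mean (0.53). Also gained were GluRIA (1.10) and GluRIB (0.86) at 30 h against the second instar and in the adult against 30 h (0.96 and 0.61), GluRIB in Sox14 RNAi at 6 h (-1.51), and with the label E75 RNAi GluRIB at 12 h (1.47) and Nmdar1 at the third instar (1.003), at 6 h (1.67) and at 6 h against 0 h (-1.35). Lost in Sox14 RNAi were GluRIA (-2.34) and Nmdar1 (-2.70) at the third instar, GluRIA at 6 h against 0 h (1.78) and its 0 to 6 h difference (-2.06), and with the label E75 RNAi that of GluRIB (-3.10). A pseudocount of 8 gained 8 calls: GluRIA (1.03) and GluRIB (0.85) at 30 h against the second instar, GluRIA in the adult against 30 h (0.93), in Sox14 RNAi over the pupal mean (-0.58) and in αβ (1.30) and γ (0.85) against non-MB neurons, and Nmdar1 with the label E75 RNAi over the pupal mean (0.91) and in γ against non-MB neurons (-0.91). Without astrocyte-like libraries 8 calls were gained, those of the 18 for GluRIA and GluRIB at 30 h and in the adult and for GluRIA and Nmdar1 against non-MB neurons, and Nmdar1 in γ against αβ neurons (-0.79). The robust fit lost 6 calls, Nmdar2 in γ against αβ neurons (0.79) and at 30 h against the second instar (0.76), Nmdar1 in Sox14 RNAi at the third instar (-2.70) and 6 h (-2.23) and in EcR-DN minus E75 RNAi (-1.05), and GluRIB with the label E75 RNAi at 6 h (1.70). Using no filter lost 3 of these, Nmdar2 at 30 h, GluRIB and Nmdar1 in EcR-DN minus E75 RNAi. Rescaling gained GluRIA in αβ against non-MB neurons (1.34).

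Without the Sox14 RNAi A libraries of the third instar and 0 h, GluRIA was called over the pupal mean (-0.75) and lost its 0 to 6 h difference (-1.58), and at 6 h against 0 h GluRIB (1.99) and Nmdar2 (-1.10) were called; at 0 h GluRIA (-0.17) and Nmdar2 (0.098) changed sign, as both did without library A at 0 h alone.

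Replicate numbers did not pair the libraries: deviations from group means correlated at a mean of 0.002 between same-numbered developmental libraries and -0.003 in the perturbation table. With the replicate number as a block, GluRIA was called in αβ against non-MB neurons (1.34, adjusted p = 0.0456) and GluRIB with the label E75 RNAi at 6 h was not (1.69, adjusted p = 0.0537).

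Where leaving out 1 library changed a call or direction, ranges of log2 fold change were as follows. For Sox14 RNAi against control they were -0.17 to 0.78 (GluRIA), -0.056 to 1.61 (GluRIB) and -0.49 to 0.098 (Nmdar2) at 0 h, -0.52 to 0.33 (Nmdar2) at the third instar, -0.33 to 0.091 (GluRIB) at 12 h, and -0.75 to -0.43 (GluRIA) and -0.55 to 0.0054 (GluRIB) over the pupal mean. For 0 to 6 h changes they were -2.53 to -1.58 (GluRIA), -3.11 to -1.45 (GluRIB) and -0.24 to 1.62 (Nmdar1) in Sox14 RNAi, -3.92 to -2.26 (GluRIB) with the label E75 RNAi and -0.42 to 0.061 (Nmdar2) in EcR-DN, each against control, and -0.089 to 0.38 (Nmdar2) within EcR-DN. Nmdar2 ran from -0.47 to 0.075 at the third instar with the label E75 RNAi. In EcR-DN GluRIA ran from 0.65 to 0.84 over the pupal mean and GluRIB from -0.0001 to 0.53 at 12 h. In γ neurons they were -0.28 to 0.083 (GluRIA, 30 h against 18 h) and -0.39 to 0.34 (Nmdar1, 30 h against the second instar). In adults they were 1.12 to 1.52 (GluRIA, αβ against non-MB), -0.76 to -0.42 (Nmdar2, γ against non-MB) and 0.61 to 0.94 (Nmdar2, γ against αβ). Of other values, Nmdar1 in Sox14 RNAi at 12 h ran from -2.49 to -1.09, GluRIA in EcR-DN larvae from 0.27 to 1.25 and at 6 h against 0 h from 0.052 to 0.49, and GluRIB in Sox14 RNAi larvae from -1.68 to -0.69.

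Counts over all genes moved by over 1.5 times for 30 h against 18 h (107 genes, 71 in the robust fit, 286 on its groups alone, 195 without astrocyte-like libraries) and Sox14 RNAi at the third instar (151, 86 robust, 52 alone) and 12 h (139, 91 robust, 78 alone). On their groups alone the counts were 246 for 584 (E75 RNAi label, 0 h), 466 for 726 (6 h), 369 for 740 (Sox14 RNAi, 0 h), 182 for 105 (EcR-DN, 6 h against 0 h), 499 for 1003 (E75 RNAi label, 6 h against 0 h) and 97 for 227 (Sox14 RNAi, 0 to 6 h difference). With 1 library left out they ran from 316 to 604 in EcR-DN at the third instar (713 with all), 340 to 463 at 6 h (593) and 211 to 356 at 12 h (417); from 113 to 224 with the label E75 RNAi at the third instar (277), 445 to 717 at 6 h (726) and 239 to 329 at 12 h (383); and from 56 to 157 in Sox14 RNAi at the third instar (151), 309 to 410 at 6 h (518) and 74 to 119 at 12 h (139). They ran from 47 to 75 for 30 h against 18 h, 58 to 73 for 6 h against 0 h in EcR-DN and 636 to 1040 with the label E75 RNAi, and 231 to 463 (label E75 RNAi) and 113 to 266 (Sox14 RNAi) for the 0 to 6 h differences. Unknown depth and an unnamed normalization limit precision, and 2 control libraries each at the third instar and 6 h carry 3 perturbations.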
